A study of Homo sapiens with 16 samples.

Results

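The 9 genes described here encode enzymes that make, salvage or remove the deoxynucleotides that DNA is built from: RRM1, RRM2, TYMS, DTYMK, DUT, DCTPP1, TK1, DCK and SAMHD1. They were selected on function and, in part, on the strong fall of TYMS and RRM2 in the treated libraries, with earlier results of these data known. All values of TYMS and RRM2 are therefore given as description with no test, and tests are given only for the other 7 genes, within fits over all genes. All 9 were found among the 58676 gene identifiers of the count files, and all 9 passed the filter on low counts in both cell lines.

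Ribonucleotide reductase turns ribonucleotides into deoxyribonucleotides and is built from a large catalytic subunit, RRM1, and a small radical-carrying subunit, RRM2, whose level follows the cell cycle. Thymidylate synthase (TYMS) makes dTMP from dUMP, DTYMK carries dTMP on to dTDP, and DUT and DCTPP1 clear dUTP and dCTP from the pool. TK1 and DCK recover deoxynucleosides, and SAMHD1 breaks deoxynucleotides down. Genes of this pathway are known as E2F targets that are switched on as cells enter S phase, and CDK4 and CDK6, the kinases that palbociclib inhibits, act upstream of E2F through RB.

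RNA had been sequenced from A549, a human lung cancer line, and SUM159, a human breast cancer line of the triple-negative class. Each line was left untreated or received 2 µM palbociclib, 3 µM indisulam or both drugs, in every case for 16 h before harvest, which gave 8 groups of 2 libraries. Indisulam is a sulfonamide that directs the splicing factor RBM39 to the DCAF15 ubiquitin ligase and so to degradation. The study calls its duplicates technical, so the p-values below measure the spread between such duplicates and not between independent cultures. SUM159 medium contained insulin and hydrocortisone and A549 medium did not, so that line and medium cannot be told apart. Libraries held between 18306636 and 34075588 gene counts, at which 3 counts correspond to 0.0880 to 0.164 CPM (counts scaled by library size). The 4 epithelial markers EPCAM, CDH1, KRT8 and KRT18 were all present in untreated A549 (EPCAM at 35.0 and 32.8 TPM, that is, scaled by transcript length and library size), whereas the lung genes NKX2-1, SFTPB and SFTPC had 0 to 3 counts. Untreated SUM159 had VIM at 4210 TPM in both libraries, 8 and 9 counts of ESR1 and 0 of PGR, but ERBB2 at 47.2 and 50.6 TPM. VIM was also present in untreated A549, at 895 and 891 TPM. Untreated SUM159 held KRT8 at 759 and 807 TPM and KRT18 at 690 and 727 TPM, but only 2 to 9 counts of EPCAM and CDH1. Its mammary genes were low: GATA3 at 3.53 and 4.15, KRT5 at 1.46 and 1.42, and KRT14 at 0.968 and 0.936 TPM.

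Short stretches of 5 promoters are shown because members that moved together in these libraries did not all carry the same letters. Each runs from 130 to 11 bases upstream of a RefSeq transcript start on GRCh38.p14, 5′ to 3′ along the gene. Capitals mark the motif named, which was chosen gene by gene. Where a gene has several starts, the one with most matches to that motif is shown, so the stretches are not a neutral sample. RRM2 (chr2:10122609-10122728, plus strand) and TK1 (chr17:78187063-78187182, minus strand) hold CCAAT boxes (CCAAT, or ATTGG where it lies on the other strand), as does SAMHD1 (chr20:36951719-36951838, minus strand), the member that moved least with palbociclib.
RRM2: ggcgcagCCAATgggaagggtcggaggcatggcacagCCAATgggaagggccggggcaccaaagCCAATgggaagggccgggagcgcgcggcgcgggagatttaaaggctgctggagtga
TK1: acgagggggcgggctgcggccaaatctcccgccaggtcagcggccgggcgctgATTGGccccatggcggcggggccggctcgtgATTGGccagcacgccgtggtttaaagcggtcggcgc
SAMHD1: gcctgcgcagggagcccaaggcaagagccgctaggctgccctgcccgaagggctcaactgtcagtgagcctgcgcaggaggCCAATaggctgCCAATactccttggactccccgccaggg
TYMS (chr18:657523-657642, plus strand) and DUT (chr15:48332067-48332186, plus strand) hold E2F motifs.
TYMS: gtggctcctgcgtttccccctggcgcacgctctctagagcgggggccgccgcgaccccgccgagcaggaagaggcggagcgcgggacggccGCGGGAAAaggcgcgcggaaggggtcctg
DUT: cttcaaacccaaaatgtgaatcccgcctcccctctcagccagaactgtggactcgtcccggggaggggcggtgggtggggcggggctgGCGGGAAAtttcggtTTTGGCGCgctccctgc
The E2F letters searched were TTTCCCGC, TTTCGCGC, TTTGCCGC and TTTGGCGC, on both strands, and no match of one motif overlapped a match of another in the windows of the 9 genes. Over windows from 250 bases before to 50 bases from the start, the RRM2 start shown held 3 CCAAT boxes and its other start 1. The TK1 start shown held 2 and its other start 0, and the SAMHD1 window held 2. For DUT the start shown held 2 E2F motifs and its other starts 0. Of the 9 genes, 5 had a window with a CCAAT box and 3 had one with an E2F motif (TYMS, DUT and, downstream of the start, DCK). Some genes have several windows. Counted by window, 6 of the 14 windows of the 9 genes held a CCAAT box and 3 an E2F motif. Among all 35116 promoter windows, 34.6% held a CCAAT box and 3.31% an E2F motif. The last motif, the cell-cycle element TTTGAA, was found in 2 of the 14 windows (of RRM1 and DUT), and in 15.2% of all windows. These matches describe letters only, and their absence from a window says nothing of the factor.

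RRM2 (ENSG00000171848, chr2:10120698-10211725, plus strand, GENCODE release 44 on GRCh38) had the lowest combination level relative to untreated of all members. In A549 it stood at 136 and 141 CPM without drug, 25.0 and 27.2 CPM after palbociclib, 72.5 and 75.0 CPM after indisulam, and 9.11 and 8.11 CPM after both drugs. In SUM159 the corresponding values were 217 and 219, 49.9 and 47.9, 143 and 134, and 20.0 and 23.3 CPM. No 2 groups of a line overlapped, and the order from untreated through indisulam and palbociclib to the combination was the same in both lines. As log2 differences from untreated, A549 gave -2.40 ± 0.0585 (SE) for palbociclib, -0.91 ± 0.0532 for indisulam and -4.01 ± 0.0711 for the combination. SUM159 gave -2.16 ± 0.0521, -0.65 ± 0.0478 and -3.34 ± 0.0583. The combination libraries thus held 16.1-fold less RRM2 than untreated A549 and 10.1-fold less than untreated SUM159. When all 15744 genes of A549 were ordered by log2 difference between combination and untreated, RRM2 came 10th from the bottom.

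TYMS (ENSG00000176890, chr18:657653-673578, plus strand) was the other gene on which the set was selected. A549 held 202 and 202 CPM untreated, 43.9 and 44.9 CPM after palbociclib, 98.2 and 95.6 CPM after indisulam, and 22.2 and 23.5 CPM after the combination. SUM159 held 209 and 212, 42.8 and 40.2, 112 and 109, and 21.3 and 22.1 CPM. TYMS levels of the lines lay close together in every treatment, and within each line the 4 groups did not overlap. Combination libraries had a log2 difference from untreated of -3.14 ± 0.0516 in A549 and -3.28 ± 0.0484 in SUM159, or 8.83-fold and 9.70-fold less. The last exons of TYMS share 967 bases with ENOSF1 on the opposite strand, and the strand setting of the counting is not given in the sources used here. ENOSF1 was measured at 18.0 to 42.7 CPM in A549 and 31.9 to 54.4 CPM in SUM159.

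**Figure D1:**
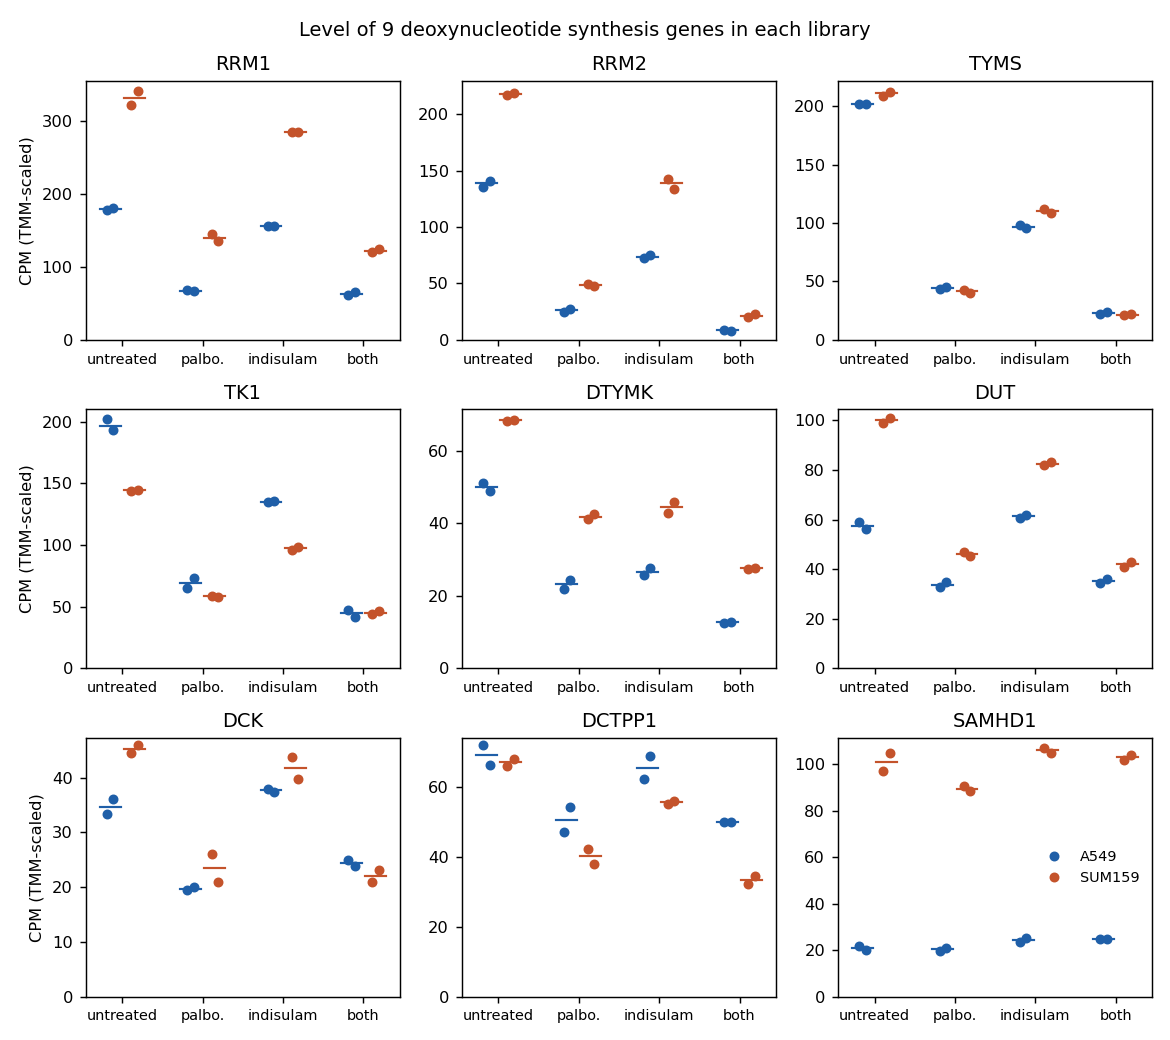
Level of each of the 9 genes in every library, in CPM on TMM-scaled library sizes, from an axis starting at 0. Points are single libraries, short lines group means of 2 libraries, blue A549 and orange SUM159; "both" is the combination. RRM2 and TYMS step down from untreated through indisulam and palbociclib to the combination, and SAMHD1 stays near 20 to 25 CPM in A549 and 88 to 107 CPM in SUM159.

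Among the 7 genes that can be tested, palbociclib lowered 6 in A549 and all 7 in SUM159 by edgeR's quasi-likelihood test (adjusted p under 0.05), and none rose. In SUM159 the call of SAMHD1 (log2 -0.17) was lost under total-count scaling (-0.07, edgeR adjusted p = 0.213). Of all genes tested, 43.2% were called in A549 and 54.5% in SUM159, in either direction, and 21.1% and 29.0% of all genes were called lower. The median log2 change of the 7 was -0.81 in A549 and -0.95 in SUM159, beside 0.03 and 0.02 for all genes. Because these are bulk libraries, fewer cells in S phase and less of each mRNA per cell cannot be told apart. The replication genes moved with them: all 18 of 18 on a list of MCM, GINS, polymerase and clamp genes fell with palbociclib in each line.

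The large reductase subunit RRM1 (ENSG00000167325, chr11:4094707-4138932, plus strand) was among the more abundant members, with a larger value for palbociclib than for indisulam. A549 counts scaled to 178 and 181 CPM untreated, 67.9 and 67.5 after palbociclib, 156 and 156 after indisulam, and 61.5 and 65.7 after both drugs. SUM159 was higher throughout, at 322 and 341, 145 and 136, 285 and 285, and 120 and 124 CPM. The 4 groups of each line did not overlap. The palbociclib change of RRM1 was -1.40 ± 0.0447 (log2 ± SE) in A549 and -1.24 ± 0.0411 in SUM159 (edgeR adjusted p = 3.5e-12 and 1.49e-13). The indisulam change was also called but small, at -0.20 (adjusted p = 0.00134) and -0.22 (adjusted p = 0.000258). Adding indisulam to palbociclib gave a further log2 change of -0.20 in SUM159 (adjusted p = 0.000799), whereas the difference of -0.09 in A549 did not pass the test (adjusted p = 0.124).

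DTYMK (ENSG00000168393, chr2:241675747-241686944, minus strand), the kinase after thymidylate synthase, was the member whose indisulam and palbociclib changes lay closest together. Its A549 levels were 51.1 and 49.0 CPM untreated, 22.0 and 24.4 after palbociclib, 25.8 and 27.6 after indisulam, and 12.6 and 12.9 after the combination. SUM159 libraries read 68.2 and 68.6, 41.1 and 42.5, 42.9 and 45.9, and 27.5 and 27.7 CPM. The single-drug groups lay between untreated and combination in both lines, without overlap of either end. The combination change of DTYMK was -1.97 ± 0.0763 (log2) in A549, edgeR adjusted p = 1.75e-11, against -1.31 ± 0.0532 in SUM159, adjusted p = 9.89e-13. The indisulam change alone was -0.91 in A549 and -0.62 in SUM159 (adjusted p = 8.68e-08 and 4.18e-08).

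The 2 pyrophosphatases that clear dUTP and dCTP fell with palbociclib and with the combination in both lines. DUT (ENSG00000128951, chr15:48331011-48343373, plus strand) ran at 59.0 and 56.2, 32.7 and 34.7, 60.6 and 62.0, and 34.4 and 35.9 CPM in A549, in the order untreated, palbociclib, indisulam and combination. In SUM159 it ran at 99.0 and 101, 46.9 and 45.3, 81.9 and 83.1, and 41.0 and 42.8 CPM. Palbociclib and combination libraries overlapped in A549, and no groups did in SUM159. In A549 the indisulam libraries lay above the untreated ones without passing the test (log2 0.09, edgeR adjusted p = 0.204), while in SUM159 DUT fell by 0.28 with indisulam (adjusted p = 5.37e-05). DCTPP1 (ENSG00000179958, chr16:30423615-30430030, minus strand) read 71.9 and 66.1, 47.1 and 54.1, 62.1 and 68.6, and 50.0 and 50.0 CPM in A549. Its SUM159 values were 66.0 and 68.0, 42.2 and 38.0, 55.1 and 55.9, and 32.3 and 34.5 CPM. In A549 DCTPP1 overlapped between untreated and indisulam libraries and between palbociclib and combination libraries, and no groups overlapped in SUM159. With the combination DUT fell by 0.71 and DCTPP1 by 0.47 on the log2 scale in A549 (edgeR adjusted p = 9.61e-08 and 6.73e-05), against 1.26 and 1.01 in SUM159 (adjusted p = 2.65e-13 and 1.09e-10).

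Of the salvage kinases, TK1 (ENSG00000167900, chr17:78174091-78187233, minus strand), which phosphorylates thymidine, fell in every treatment. A549 had 202 and 193 CPM untreated, 65.1 and 73.6 after palbociclib, 135 and 136 after indisulam, and 47.7 and 41.8 after both drugs. SUM159 had 144 and 145, 59.0 and 57.6, 96.1 and 98.8, and 43.7 and 46.5 CPM. No groups of a line overlapped. The combination change of TK1 was a log2 value of -2.14 ± 0.0662 in A549 and of -1.68 ± 0.0448 in SUM159 (edgeR adjusted p = 1.3e-12 and 3.41e-15).

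DCK (ENSG00000156136, chr4:70992538-71030914, plus strand), the deoxycytidine kinase, was called with palbociclib and not with indisulam, and the difference between the drugs was not tested. It stood at 33.4 and 36.0, 19.4 and 20.0, 38.0 and 37.4, and 25.0 and 23.8 CPM in A549, and at 44.4 and 45.9, 26.1 and 20.9, 43.7 and 39.8, and 21.0 and 23.1 CPM in SUM159. Palbociclib and combination libraries overlapped in SUM159, and no groups did in A549. Palbociclib changed it by -0.81 and -0.95 on the log2 scale (edgeR adjusted p = 2.24e-07 and 4.83e-08), and the indisulam differences of 0.12 and -0.12 did not pass (adjusted p = 0.125 and 0.249). In A549 the combination libraries lay above the palbociclib ones, by a log2 change of 0.31 ± 0.0692 (adjusted p = 0.00188). In SUM159 that difference was -0.09 ± 0.0890 (adjusted p = 0.452), and it became a called fall of 0.26 without SUM159 palbociclib replicate 2 (adjusted p = 0.0176). DCK shares 199 exon bases with MOB1B on the same strand.

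SAMHD1 (ENSG00000101347, chr20:36890229-36951893, minus strand), which hydrolyses deoxynucleotides, had the smallest palbociclib and combination values of the members, but in A549 its indisulam value was larger than those of RRM1, DUT, DCK and DCTPP1. Its levels in A549 were 21.8 and 20.1 CPM untreated, 19.7 and 21.0 after palbociclib, 23.5 and 25.2 after indisulam, and 24.8 and 25.0 after the combination. SUM159 levels were 97.1 and 105, 90.5 and 88.4, 107 and 105, and 102 and 104 CPM. Untreated and palbociclib libraries overlapped in A549, and in SUM159 the palbociclib pair was the lowest. In A549 SAMHD1 rose by 0.22 with indisulam and 0.25 with the combination on the log2 scale (edgeR adjusted p = 0.0287 and 0.0119). Without A549 untreated replicate 2 neither rise passed (0.17 and 0.20, adjusted p = 0.18 and 0.103), nor did the indisulam rise without A549 indisulam replicate 2 (0.17, adjusted p = 0.172) or without a low-count filter (adjusted p = 0.0586). DESeq2's Wald test called neither (adjusted p = 0.15 and 0.0589). In SUM159 neither passed (0.07 and 0.03, edgeR adjusted p = 0.185 and 0.612), though both were called under total-count scaling (0.13 and 0.17, adjusted p = 0.0281 and 0.00255). The fall of 0.17 with palbociclib in SUM159 (adjusted p = 0.00304) was -0.12 without SUM159 untreated replicate 2 (adjusted p = 0.0776) and -0.07 under total-count scaling (adjusted p = 0.213).

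**Figure D2:**
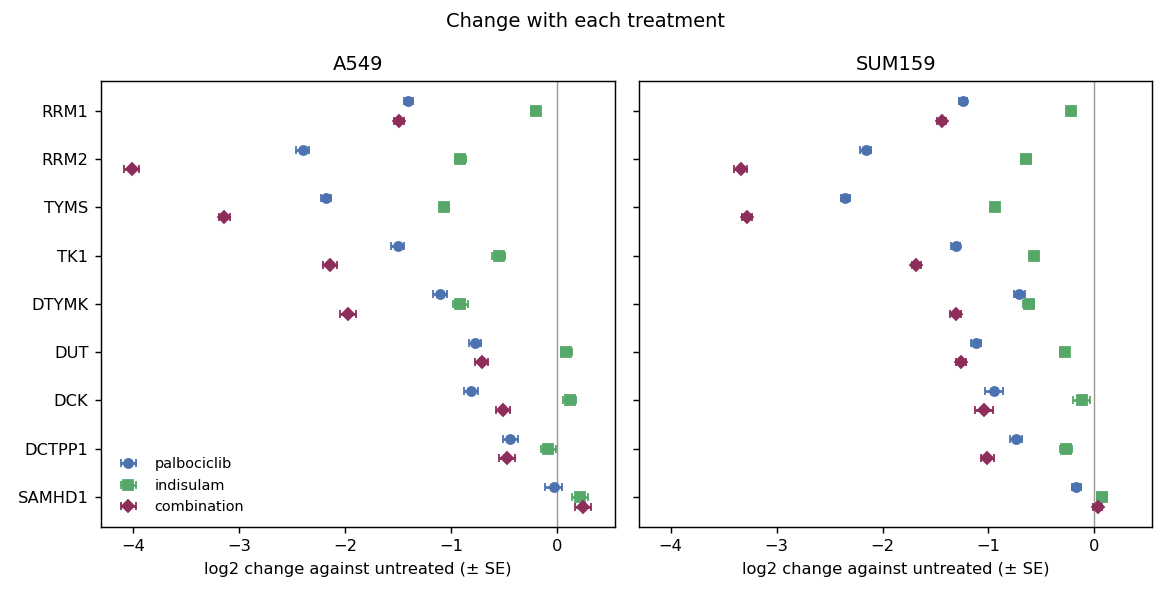
Log2 change against untreated libraries (x axis, error bars ± SE of the edgeR fit) for the 9 genes, with A549 left and SUM159 right. Circles are palbociclib, squares indisulam and diamonds the combination. RRM2 and TYMS lie farthest left with the combination, at -4.01 and -3.14 in A549 and -3.34 and -3.28 in SUM159, and SAMHD1 lies near 0.

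With indisulam alone, 3 of the 7 tested genes fell in A549 (RRM1, TK1 and DTYMK) and 1 rose (SAMHD1). Of all genes there, 49.2% were called in either direction, and 25.9% were called lower. In SUM159, 5 of the 7 fell (those 3 with DUT and DCTPP1), where 46.9% of all genes were called in either direction and 24.9% lower. With the combination, 6 fell and 1 rose in A549 and 6 fell in SUM159, against 57.8% and 65.3% of all genes called in either direction. The 6 that fell were the same in both lines, RRM1, TK1, DUT, DTYMK, DCK and DCTPP1. These 3 contrasts of a line share its untreated libraries. The median combination change of the 7 genes was -0.71 in A549 and -1.26 in SUM159, beside 0.00 and 0.01 over all genes.

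The remaining contrasts set the combination against each single drug. Compared with palbociclib alone, the combination was lower for TK1 and DTYMK and higher for DCK and SAMHD1 in A549, so that 4 of 7 were called where 51.5% of all genes were. In SUM159, 5 were lower (RRM1, TK1, DUT, DTYMK and DCTPP1) and SAMHD1 was higher, where 48.3% of all genes were called. The DUT change in SUM159, -0.14 (edgeR adjusted p = 0.026), did not pass without SUM159 palbociclib replicate 1 (-0.12, adjusted p = 0.0768) or SUM159 combination replicate 1 (-0.11, adjusted p = 0.193). Nor did it pass under total-count scaling (-0.09, adjusted p = 0.121), by DESeq2's Wald test (adjusted p = 0.071) or on only the groups compared (adjusted p = 0.0568). Compared with indisulam alone, 6 of 7 were lower with the combination in each line, SAMHD1 being the exception. Of all genes, 38.8% in A549 and 52.9% in SUM159 were called in either direction, and 20.1% and 28.0% were called lower. RRM2 differed by -1.61 from palbociclib and -3.10 from indisulam in A549, and by -1.18 and -2.69 in SUM159. TYMS differed by -0.96 and -2.08 in A549 and by -0.93 and -2.34 in SUM159.

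On a log2 scale the combination change can be set against the sum of the single-drug changes. None of the 7 tested genes departed from that sum at adjusted p under 0.05 by edgeR's test in either line, where 3.53% of all genes in A549 and 4.38% in SUM159 were called. At an unadjusted p under 0.05 there were 0 in A549 and 2 in SUM159 (TK1 and DUT), and DESeq2's Wald test called 0 in each. Their departures lay between -0.09 and 0.18 in A549, and between 0.01 and 0.20 in SUM159. The 0.20 belonged to TK1 (interval of 2 SE, 0.07 to 0.32, adjusted p = 0.0856), and it was called at 0.22 when genes needed 10 counts in every library (adjusted p = 0.0456). TYMS lay at 0.10 ± 0.0711 and 0.01 ± 0.0693. RRM2 was lower with the combination than the sum by -0.69 ± 0.0988 in A549 and -0.53 ± 0.0799 in SUM159, a description only since RRM2 was picked for its fall. On the linear scale these are 1.62-fold and 1.44-fold below the sum.

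**Figure D3:**
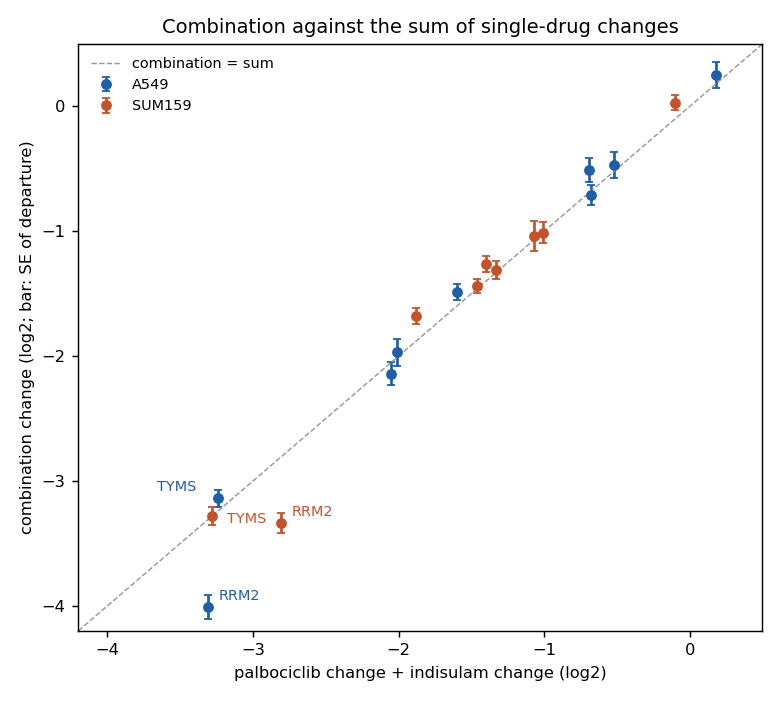
Combination change (y axis) against the sum of the palbociclib and indisulam changes (x axis), both log2 against untreated, for the 9 genes in A549 (blue) and SUM159 (orange). Bars are the SE of the departure and the dashed line marks equality. RRM2 lies below the line, by 0.69 in A549 and 0.53 in SUM159 on the log2 scale, and TYMS lies on it within 2 SE.

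Levels of different genes were compared per length, in TPM with the length of the canonical transcript. Untreated A549 libraries were led by TK1 (293 and 280 TPM) and TYMS (260 and 260), followed by DCTPP1 and RRM1, whose ranges overlapped at 116 to 126 TPM. RRM2 stood at 86.6 and 90.2 TPM, and SAMHD1 was lowest at 9.70 and 8.97. In untreated SUM159 TYMS led (284 and 301 TPM), RRM1 and TK1 overlapped between 220 and 248, RRM2 and DTYMK overlapped between 142 and 154, and DCK was lowest at 38.8 and 41.8. This order turned with the length used: with merged exons SAMHD1 was lowest in untreated SUM159 (34.4 and 39.8), TYMS overlapped RRM1, and RRM2 lay below DTYMK without overlap. With the combination RRM2 was the least abundant of the 9 in both lines, at 6.11 and 5.29 TPM in A549 and 14.2 and 16.6 TPM in SUM159, and it was so by both lengths. The 9 genes together summed to 1070 TPM in untreated A549 and 422, 734 and 333 TPM with palbociclib, indisulam and both. SUM159 sums were 1370, 573, 976 and 455 TPM. TYMS and RRM2 made up 32.6% ± 0.72 (SD, n = 2) of the sum in untreated A549 and 10.9% ± 0.309 with the combination, and 32.3% ± 0.246 and 10.3% ± 0.218 in SUM159. Both genes were picked for their strong fall, so their smaller share and part of the lower sum follow from that choice.

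RRM2B, the p53-regulated small subunit that can replace RRM2, lies outside the 9 genes but shares RRM1 as partner. It read 53.8 and 58.3 CPM in untreated A549 and 80.4 and 74.0 CPM with the combination, a rise of 0.46 ± 0.0575 on the log2 scale (edgeR adjusted p = 7.37e-06). SUM159 read 35.4 and 34.3 CPM untreated and 36.8 and 38.2 CPM with the combination, a log2 difference of 0.10 that did not pass (adjusted p = 0.114) but was called at 0.25 under total-count scaling (adjusted p = 0.000794) and at 0.15 with 10 counts in every library (adjusted p = 0.0269). RRM2 made up 78.7% and 78.0% of the TPM of both small subunits in untreated A549, 37.7% and 40.0% after palbociclib, 59.9% and 61.2% after indisulam, and 14.2% and 13.8% after the combination. In SUM159 the shares were 90.0% and 90.3%, 68.6% and 68.9%, 84.5% and 84.1%, and 44.3% and 47.2%. By these lengths RRM2B was the larger in A549 with palbociclib or both drugs, and in SUM159 with both drugs. The shares depend on the length used: with all exons of a gene merged, the RRM2 share went down from 59.3% to 6.16% in A549, and in SUM159 from 78.7% to 25.3%. RRM2B was then also the larger in A549 with indisulam and in SUM159 with palbociclib, at RRM2 shares of 38.2% and 46.9%. RRM2 per RRM1 in TPM was 0.747 untreated and 0.131 with the combination in A549, against 0.635 and 0.171 in SUM159. Merged exons gave 0.358 and 0.0628, and 0.304 and 0.0819. RRM2 was picked for its strong fall, so its smaller share and its lower ratio to RRM1 follow in part from that choice.

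**Figure D4:**
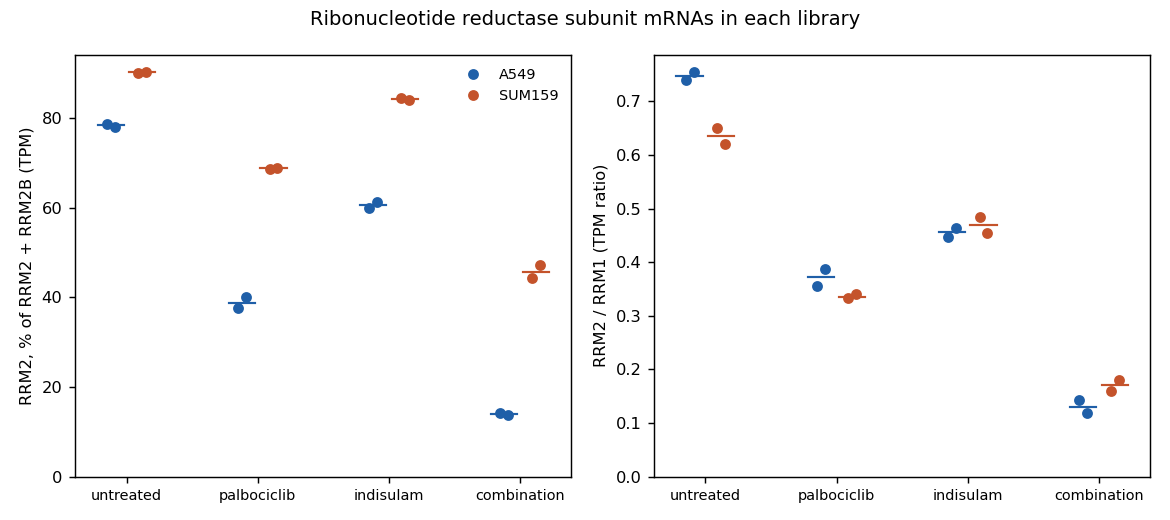
RRM2 as a percentage of RRM2 plus RRM2B (left) and as a ratio to RRM1 (right), both in TPM by canonical transcript length, in each library of A549 (blue) and SUM159 (orange). Lines mark means of 2 libraries. RRM2, which enters both measures, was picked for its strong fall. Both measures are lowest with the combination, 13.8% to 14.2% and 0.119 to 0.143 in A549, and 44.3% to 47.2% and 0.160 to 0.181 in SUM159.

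Untreated levels of the 7 tested genes all differed between SUM159 and A549 by edgeR's test, 5 higher and 2 lower in SUM159, where 76.3% of all genes were called. SAMHD1 differed most, 4.40-fold higher in SUM159 (log2 2.14 ± 0.0611, adjusted p = 2.69e-20), and RRM1, DUT, DTYMK and DCK followed at 0.76, 0.67, 0.32 and 0.25 on the log2 scale. TK1 was lower in SUM159 by -0.58 ± 0.0526 (adjusted p = 3.54e-10). The DCTPP1 difference of -0.18 (adjusted p = 0.0205) did not pass without A549 untreated replicate 1 (-0.02, adjusted p = 0.819), A549 untreated replicate 2 (-0.16, adjusted p = 0.0809) or SUM159 untreated replicate 1 (-0.15, adjusted p = 0.119), nor under total-count scaling (-0.08, adjusted p = 0.32) or by DESeq2's Wald test. RRM2 was 1.44-fold higher in SUM159 and TYMS 1.05-fold lower, as description, in a fit scaled over both lines. Scaled within each line, untreated TYMS read 209 and 212 CPM in SUM159 against 202 and 202 CPM in A549. Total-count scaling moved the median gene of this contrast by 0.1, so the direction for TYMS is not settled. The TYMS log2 difference of -0.07 ranged from -0.08 to 0.02 with 1 library left out.

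The 2 lines also answered the combination to different degrees, tested as an interaction over all 16 libraries. That fit was scaled over both lines, so its differences need not equal those between values fitted within each line. DTYMK and TK1 fell less in SUM159 than in A549, by 0.73 ± 0.0943 and 0.52 ± 0.0821 on the log2 scale (edgeR adjusted p = 2.58e-06 and 2.93e-05). DUT, DCK and DCTPP1 fell more in SUM159, by -0.48 ± 0.0749, -0.47 ± 0.117 and -0.47 ± 0.0972 (adjusted p = 2.84e-05, 0.0035 and 0.00055). These 5 of 7 compare with 30.9% of all genes called, and the median of all genes in this contrast was 0.10. With 1 library left out, DTYMK ranged from 0.54 to 0.73 and TK1 from 0.28 to 0.56. DUT ranged from -0.67 to -0.45, DCK from -0.66 to -0.4 and DCTPP1 from -0.69 to -0.43. Size factors in place of TMM moved the median gene of this contrast by -0.08. SAMHD1 was not called (-0.16, adjusted p = 0.18), but was without A549 untreated replicate 1 (-0.37, adjusted p = 0.00708), A549 combination replicate 1 (-0.31, adjusted p = 0.0212) or A549 combination replicate 2 (-0.31, adjusted p = 0.02), with size factors (-0.24, adjusted p = 0.0347) and with 10 counts in every library (-0.26, adjusted p = 0.0136). For palbociclib alone 4 of 7 responses differed between lines where 12.8% of all genes did, and for indisulam alone 2 of 7 where 15% did. The palbociclib count was 2 without A549 untreated replicate 1 or 2, A549 palbociclib replicate 1 or 2, or SUM159 untreated replicate 1. The indisulam count was 1 without A549 untreated replicate 1, A549 indisulam replicate 1 or 2, SUM159 untreated replicate 1 or 2, or SUM159 indisulam replicate 2.

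Neighbouring pathways were read from lists of genes with known roles. In the folate cycle, which hands TYMS its methylene group, 9 of 10 genes fell with the combination in each line and 1 rose, at adjusted p under 0.05 by edgeR's test. Over all genes 30.4% were called lower and 27.4% higher in A549, and 33.1% and 32.2% in SUM159. SHMT1, the cytosolic serine hydroxymethyltransferase, fell by 2.20 ± 0.0708 (log2 ± SE) in A549 and by 1.08 ± 0.0564 in SUM159, and more with indisulam than with palbociclib as values (-1.33 and -0.73 in A549, -0.78 and -0.30 in SUM159). The median over the 10 genes was -0.69 in A549 and -0.58 in SUM159.

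De novo purine and pyrimidine synthesis, which supplies the ribonucleotides that the reductase uses, was mostly lower. With the combination 14 of 17 genes fell and 1 rose in A549, and 16 of 17 fell in SUM159, with medians of -0.50 and -0.65, where 30.4% and 33.1% of all genes were called lower. CTPS1, which makes CTP, fell by 1.23 ± 0.0541 and 1.14 ± 0.0387, and PRPS2, a phosphoribosyl pyrophosphate synthetase, by 1.16 ± 0.0516 and 1.13 ± 0.0490. ADSS2 in A549 was the single gene of the list to rise (0.19 ± 0.0455, edgeR adjusted p = 0.00275).

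Other genes of deoxynucleotide handling split between directions. Of 20 genes, 5 rose and 11 fell with the combination in A549, and 5 rose and 7 fell among the 19 tested in SUM159, where 57.8% and 65.3% of all genes were called in either direction. Cytidine deaminase (CDA) rose by 0.94 ± 0.162 and 0.56 ± 0.0626 on the log2 scale, and the equilibrative nucleoside transporter SLC29A1 fell by 1.06 ± 0.0524 and 0.89 ± 0.0414. SLC29A2, its relative, fell by 1.10 ± 0.104 in A549. The mitochondrial thymidine kinase TK2 rose in SUM159 by 0.45 ± 0.0771, and ITPA, which clears inosine triphosphate, rose in A549 by 0.46 ± 0.0939. Of the 5 genes of the thioredoxin and glutaredoxin systems that reduce the enzyme, 3 rose with the combination in A549. In SUM159 2 rose and 3 fell, and GLRX rose by 1.00 ± 0.0533. Among all genes, 27.4% were called higher and 30.4% lower in A549, and 32.2% and 33.1% in SUM159.

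**Figure D5:**
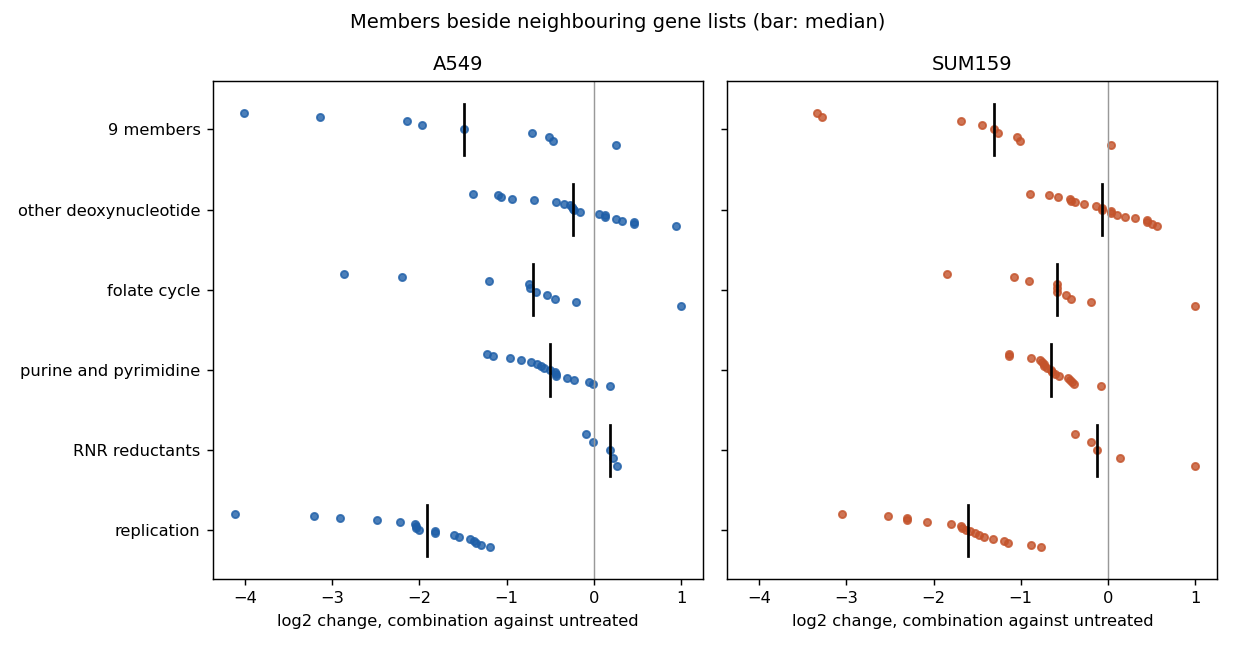
Log2 change with the combination against untreated (x axis) for every tested gene of 6 lists in A549 (left) and SUM159 (right). Each point is a gene, staggered for legibility, and black bars are list medians. Replication genes have medians of -1.91 and -1.61 and folate genes -0.69 and -0.58, and the other deoxynucleotide genes spread around -0.24 and -0.07.

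Replication genes fell with the combination in 18 of 18 cases in both lines, with medians of -1.91 and -1.61. In A549 30.4% of all genes were called lower with the combination, and 33.1% in SUM159. CDC45, part of the replicative helicase, fell by 4.11 ± 0.108 in A549 and 3.05 ± 0.0651 in SUM159, and GINS2, its partner, by 3.21 ± 0.0779 and 2.52 ± 0.0670. With indisulam alone CDC45 was lower by -1.45 and -1.09. For 11 of these 18 genes in A549 and 4 in SUM159 the combination lay below the sum of the single drugs by edgeR's test, and none lay above it. Of all genes, 2.05% and 2.16% were called below the sum.

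Across the 16 libraries, log2 CPM centred within each line gave Pearson correlations among the 8 members other than SAMHD1 of 0.615 (DTYMK and DCK) to 0.987 (RRM2 and TK1). SAMHD1 gave -0.497 to 0.247 with the others. All these points share the same treatments, so the values describe likeness across 16 libraries and carry no p. The genes most like RRM2 among 9653 were PLK4, CLSPN, MASTL, CCNE2 and FBXO5 (r from 0.994 to 0.997). Those most like TYMS were ERLIN1, RFC2, NCAPD2, ALYREF and DONSON (0.993 to 0.997). RRM1 was closest to SLF2, KIF20A, LIG1, HMGB2 and USP1, and the 5 genes closest to TK1 included FADS1, MYBL2, NCAPG2 and SAP30. DTYMK was closest to NCAPD3, MTHFD2, FN3KRP, EZH2 and POLE2. DUT, DCK and DCTPP1 had TCOF1, SNRPD1 and MRTO4 as their nearest genes (0.991, 0.988 and 0.983), and SAMHD1 had CDC40 (0.962).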

How the data were processed

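RNA from 16 libraries of A549 and SUM159 cells was analysed, 2 per group. Each deposited file holds unnormalized read counts per Ensembl gene. Per the labels, RNA was extracted on columns with DNase, libraries were made with a stranded mRNA kit, and the submitters' processing notes name GRCh38, HISAT2 2.2.1 and HTSeq. The annotation release and strand setting of the counting are not given in the sources used here, so genes that overlap another gene are uncertain. Rows naming no gene (13.2% to 16.4% of each library) stayed out of totals and tests.

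Identifiers were matched to GENCODE release 44 (58207 of 58676). Within each line the 8 libraries were fitted with edgeR 4.0.16 (R 4.3.3), TMM scaling, filterByExpr and 1 coefficient per group, and glmQLFTest p-values were adjusted by Benjamini-Hochberg over 15744 (A549) or 16080 (SUM159) genes, with calls at adjusted p under 0.05. Differences between lines came from a fit of 16 libraries and 17764 genes. SE is the log2 change divided by the square root of F. CPM used TMM library sizes, and TPM used canonical transcript lengths. Floors of 3 counts cover counting error only, since reads without molecular identifiers are not independent molecules. The fit of indisulam against untreated in each line was tested on simulated counts, for recovery and sign of the moved genes only. Other contrasts, among them the departures from additivity and the differences between lines, were not simulated.

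The members and lists were chosen with earlier results of these data known. Named genes were the members, RRM2B, overlapping genes, the 2 largest rises and falls per list and line with the combination (adjusted p under 0.05, mean of at least 5 CPM), and the 5 genes most correlated with each member. Alternatives were other scalings, filters, DESeq2 1.42.0, a replicate block, only the groups compared, a minimum change, and leaving out each library. Some genes that the naming rule selects are not reported here.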

Additional observations from a re-analysis of the deposited data

Results flagged for a closer look

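Groups of 2 libraries were too small for a check of single libraries standing apart. The results below were picked out by a test of the difference in drug response between SUM159 and A549 (edgeR interaction over 16 libraries). Each value is the SUM159 response minus the A549 response on the log2 scale, within that fit. The fit was scaled over both lines, so its values need not equal differences between the responses given above for each line. No explanation was tested.

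For the combination the differences were 0.73 for DTYMK, 0.52 for TK1, -0.48 for DUT, -0.47 for DCK and -0.47 for DCTPP1, where a positive value means a smaller fall in SUM159. Each kept its direction without any single library, though the TK1 difference ranged from 0.28 to 0.56.

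For palbociclib the difference was 0.49 for DTYMK, 0.29 for TK1, 0.26 for RRM1 and -0.25 for DUT. DTYMK did not pass without A549 untreated replicate 1 (0.28, adjusted p = 0.0562) or A549 palbociclib replicate 1 (0.25, adjusted p = 0.0609). DUT did not pass without SUM159 untreated replicate 2 (-0.24, adjusted p = 0.0864) or SUM159 palbociclib replicate 2 (-0.23, adjusted p = 0.0825). Without A549 untreated replicate 1 or 2, A549 palbociclib replicate 1 or 2, or SUM159 untreated replicate 1, neither RRM1 (0.09, 0.08, 0.08, 0.11 and 0.21) nor TK1 (0.07, 0.16, 0.03, 0.25 and 0.27) passed. DCTPP1, not called at -0.21, was called without A549 untreated replicate 1 (-0.45) or A549 palbociclib replicate 1 (-0.47). RRM1 and TK1 also did not pass with size factors (0.16 and 0.19), with 10 counts in every library or by DESeq2's Wald test. TK1 also did not pass under total-count scaling. DCTPP1 was called with size factors and with 10 counts in every library (-0.31 in each). The median of all genes in this contrast was 0.08, and size factors in place of TMM moved it by -0.10.

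For indisulam the difference was -0.37 for DUT and 0.29 for DTYMK. DTYMK did not pass without A549 untreated replicate 1 (0.23), A549 indisulam replicate 1 (0.24) or 2 (0.31), SUM159 untreated replicate 1 (0.28) or 2 (0.29), or SUM159 indisulam replicate 2 (0.23), with adjusted p from 0.0506 to 0.138, or by DESeq2's Wald test (0.27, adjusted p = 0.0782).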

How the results depend on the processing

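The counts of tested members called stayed within 1.5 times the reported ones in all 16 comparisons under size factors, total-count scaling and no low-count filter, and in the 14 that could be fitted on only the groups compared. A minimum log2 change of 1 left 3 of 6 members in A549 with palbociclib, 0 of 4 with indisulam, 3 of 7 with the combination, 0 of 4 for combination against palbociclib and 3 of 6 against indisulam. In SUM159 it left 3 of 7 with palbociclib, 0 of 5 with indisulam, 0 of 6 against palbociclib and 2 of 6 against indisulam. It left 1 of 7 untreated level differences and 0 of the response differences between lines. With 10 counts required in every library, 1 departure from additivity was called in SUM159 in place of 0. DESeq2's Wald test called 2 palbociclib and 1 indisulam response differences between lines. Leaving out 1 library gave 2 to 4 and 1 to 2 of these; with 1 library left, its group was assumed to vary like the others.

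Directions turned only for values that had not been called. Under total-count scaling, which moved the median gene by up to 0.15 (SUM159 combination against untreated) and 0.11 (SUM159 palbociclib), these were SAMHD1 with palbociclib in A549 (0.03), DCTPP1 in A549 combination against palbociclib (0.00), RRM2B with palbociclib in SUM159 (0.01), SAMHD1 in SUM159 combination against indisulam (0.05), and the indisulam response differences of RRM1 (0.01) and TK1 (0.00), the last pair also without a filter (0.01 and 0.00). SAMHD1 in SUM159 combination against indisulam was 0.00 with 10 counts in every library. With 1 library left out, SAMHD1 ranged from -0.09 to 0.02 (A549 palbociclib), -0.02 to 0.08 (A549 combination against indisulam), -0.03 to 0.08 (SUM159 combination) and -0.28 to 0.01 (palbociclib response difference). DCK ranged from -0.26 to 0.06 (SUM159 combination against palbociclib) and -0.26 to 0.12 (palbociclib response difference), DCTPP1 from -0.11 to 0.09 (A549 combination against palbociclib), RRM1 from -0.06 to 0.03 (indisulam response difference) and -0.07 to 0.16 (combination response difference), and TK1 from -0.17 to 0.03 (A549 departure from additivity). The cause was not tested. RRM2's departure ranged from -0.75 to -0.59 in A549 and -0.64 to -0.42 in SUM159. TYMS, which was not tested, ranged from -0.08 to 0.02 (untreated level difference) and -0.05 to 0.03 (SUM159 departure from additivity).

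The shared replicate numbers did not pair the samples: correlations of same-numbered deviations ran from -0.114 to 0.114. A replicate block left every member count as reported (A549 6, 4, 7, 4, 6 and 0; SUM159 7, 5, 6, 6, 6 and 0; lines 7, 4, 2 and 5), as did crossed numbers for combination against palbociclib (4 and 6), a fit added after seeing the data, like the merged-exon length. Depth was not limiting for the members, but technical duplicates leave variation between cultures unmeasured, and gene counts do not resolve isoforms.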

Other observations

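Genes that overlap members fell with them in some contrasts and not in others. ENOSF1, on the strand opposite TYMS, read 36.9 and 42.7 CPM in untreated A549, 41.7 and 36.9 after palbociclib, 20.7 and 20.3 after indisulam, and 18.0 and 25.1 after the combination. It was not called with palbociclib in A549 (log2 -0.02, edgeR adjusted p = 0.877) and rose in SUM159 (0.30, adjusted p = 0.000278), where TYMS was lower by -2.35. With indisulam ENOSF1 fell by 0.96 in A549, where TYMS was lower by -1.06, and by 0.39 in SUM159. TYMSOS, a low transcript at TYMS with 4 to 40 counts a library, fell with palbociclib (by 0.81 and 1.89, adjusted p = 0.0486 and 0.0037) and with the combination (by 1.37 and 1.58, adjusted p = 0.00444 and 0.00774). DUT-AS1, with 1 to 22 counts, fell by 2.07 with the combination in A549 (adjusted p = 0.00932), and in SUM159 it was called only for a rise of 1.10 with indisulam among the contrasts with untreated (adjusted p = 0.0263). MOB1B, which shares exon bases with DCK on the same strand, rose by 0.23 and 0.20 with the combination (adjusted p = 0.0252 and 0.00508). ZNF771, opposite DCTPP1, fell in A549 by 0.87 with indisulam and 1.19 with the combination (adjusted p = 0.00604 and 0.000788), at 0.984 to 3.33 CPM.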
